A study of Mus musculus with 12 samples.

Results

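Chromatin accessibility at the collagen genes was examined in NIH/3T3, a mouse fibroblast line that grows without limit, by ATAC-seq, an assay that reads where a transposase can insert adapters into DNA. Every region that the deposited table lists with a collagen alpha chain gene was taken, which gave 50 of 81995 regions and 30 genes. For each gene the region with its centre nearest to the listed start of transcription served as its start site region (30 regions), and the other 20 regions were kept beside them. Of the start site regions, 21 had their centre within 1000 bp of the listed start and 9 lay farther off. RefSeq lists 44 collagen genes in the mouse, so 14 had no listed region: Col4a2, Col4a4, Col6a4, Col6a5, Col6a6, Col9a1, Col15a1, Col17a1, Col19a1, Col20a1, Col22a1, Col24a1, Col25a1 and Col28a1. For Col4a2 and Col4a4 the RefSeq start lies under the region listed with the neighbouring gene, Col4a1 or Col4a3.

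The 12 libraries fall into 4 groups of 3: unedited cells (WT) and 3 lines with CRISPR-Cas9 alleles of Actg1, the gene of cytoplasmic gamma-actin. In PTC1 both Actg1 alleles hold an inserted T after position 280, 1 of them together with a substitution at position 280, and the stop codon falls in exon 3. In PTC2 an insertion of 4036 nt follows position 1096 and the stop codon falls in exon 5, and in LD the whole locus is deleted. All 4 groups share the NIH/3T3 background, and the labels name no separate clones of an allele, so an allele and the clone that carries it cannot be told apart. The study set out to learn what decay of the mutant mRNA adds to transcriptional adaptation, in which related genes respond to a mutant transcript. No region of the table lies in Actg1, so the alleles could not be checked there.

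Collagens are secreted proteins whose chains wind into a triple helix. Fibril-forming types I, II, III, V, XI and XXVII give connective tissue its strength, type IV chains build the sheet of basement membranes, type VI forms beaded filaments around cells, and further types coat fibrils, anchor epithelia, span membranes or form short networks. Fibroblasts are the main source of types I, III, V and VI. Accessibility reports how open the DNA is, not how much mRNA is made.

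Values are normalised read counts per region: counts that the authors scaled by 1 factor per library and rounded. They summed to between 31.29 M and 34.80 M per library, and the reads in regions were estimated at 25.03 M to 44.97 M, highest in PTC2 (from 35.81 M). Of 12 fibroblast markers, 11 had a start site region and Dcn had none. The summed value of the marker list was 16341 to 16827 in WT and 15225 to 15583 in PTC1, its lowest group, while PTC2 had 17134 to 18767 and LD had 16886 to 18212. In PTC1 4 members were higher and 5 lower (median log2 change -0.08), in PTC2 5 and 0, and in LD 6 and 2. The summed cartilage and bone markers (6 of 8 with a region, Acan and Ibsp without) ran from 4218 to 4417 in WT, and PTC1 (4515 to 4914) and PTC2 (5218 to 5548) lay above that range, with LD at 3951 to 4426. Neural markers (5 of 7 with a region) summed to 2018 to 2214 in WT and 3359 to 3480 in PTC1, where 4 were higher and 1 lower. Muscle markers (4 of 7) summed to 157 to 214 in WT and 256 to 313 in PTC1, where 1 was higher and 0 lower. In PTC2 they summed to 250 to 275, with 3 higher and 0 lower. Epithelial markers (5 of 8, with Epcam, Cdh1 and Krt18 lacking a region) went from 796 to 842 in WT to 1399 to 1447 in PTC2, and endothelial markers (5 of 7, Pecam1 and Emcn lacking one) from 982 to 1042 to 1293 to 1339. The endothelial sum was also above WT in PTC1 (1127 to 1211), where 2 members were higher and 1 lower. In each of the epithelial and endothelial lists 1 member was higher and 2 were lower in PTC2, with medians of -0.16 and -0.30. Blood markers (5 of 7) summed to 1025 to 1127 in WT and 946 to 967 in PTC2, where 2 were higher and 1 lower. The part of these shifts in the collagen values was not tested. Bulk ATAC-seq cannot tell a region that is open in fewer cells from a region that is less open in each cell.

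The start site regions that carry the main differences are shown by the DNA just before the RefSeq start (GRCm38.p6, 5′ to 3′ on the strand of the gene, ending at the base before the start). Capitals mark every match, on either strand, to the TATA box (TATAAA), the box named CCAAT, the GC box (GGGCGG), the AP-1 site (TGANTCA), the TEAD site (GGAATG) or the CArG box of SRF. Col18a1 (chr10:77166531-77166780, minus strand) lost most of its signal in PTC1, Col5a3 (chr9:20815118-20815317, minus) gained it there, and Col7a1 (chr9:108953336-108953585, plus) was lower in all 3 mutants. Col4a6 (chrX:141474096-141474326, minus) and Col4a5 (chrX:141475169-141475369, plus) are neighbours that point away from each other, and only Col4a6 was called against WT. Most of the Col4a6 stretch lies just outside its region. Col1a2 (chr6:4505368-4505617, plus) belongs to the most abundant collagen of the skin and bone.
Col18a1: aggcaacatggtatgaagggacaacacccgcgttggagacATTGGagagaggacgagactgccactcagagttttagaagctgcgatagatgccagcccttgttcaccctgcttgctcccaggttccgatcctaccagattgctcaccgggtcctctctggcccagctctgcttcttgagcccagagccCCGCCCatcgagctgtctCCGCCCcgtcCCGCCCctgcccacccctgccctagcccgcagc
Col5a3: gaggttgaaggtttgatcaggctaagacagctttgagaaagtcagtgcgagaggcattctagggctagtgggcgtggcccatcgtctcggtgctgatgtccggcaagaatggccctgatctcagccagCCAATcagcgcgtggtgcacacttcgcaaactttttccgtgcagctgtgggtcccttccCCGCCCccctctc
Col7a1: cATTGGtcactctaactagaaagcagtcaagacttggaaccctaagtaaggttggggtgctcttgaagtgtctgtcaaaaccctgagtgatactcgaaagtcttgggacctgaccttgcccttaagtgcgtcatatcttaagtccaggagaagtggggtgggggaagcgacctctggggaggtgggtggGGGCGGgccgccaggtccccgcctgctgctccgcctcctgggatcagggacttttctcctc
Col4a6: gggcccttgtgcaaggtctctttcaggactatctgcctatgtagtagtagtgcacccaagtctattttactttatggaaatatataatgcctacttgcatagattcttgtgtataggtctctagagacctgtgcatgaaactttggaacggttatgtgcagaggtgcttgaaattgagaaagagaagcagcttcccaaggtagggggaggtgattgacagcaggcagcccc
Col4a5: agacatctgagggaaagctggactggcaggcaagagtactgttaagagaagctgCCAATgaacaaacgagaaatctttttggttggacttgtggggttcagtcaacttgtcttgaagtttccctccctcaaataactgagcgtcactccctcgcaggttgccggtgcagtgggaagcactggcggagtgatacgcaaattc
Col1a2: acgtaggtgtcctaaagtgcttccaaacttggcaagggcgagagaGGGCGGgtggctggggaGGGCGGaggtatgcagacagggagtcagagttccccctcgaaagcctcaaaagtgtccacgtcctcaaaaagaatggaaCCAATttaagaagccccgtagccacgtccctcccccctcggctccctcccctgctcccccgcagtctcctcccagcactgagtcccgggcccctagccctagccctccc

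The Col18a1 stretch holds 3 GC boxes on the other strand, 61, 43 and 33 bases before the start, and the Col4a6 stretch holds none of the motifs searched. The table of promoter windows (250 bases before to 50 after a start) had 22 of the 30 genes, and 19 windows of 18 genes overlapped the start site region of their gene. GGGCGG was present in 15 of those 19 windows (78.9%), against 35.7% of all 32851 mouse windows. CCAAT was in 42.1% against 37.4%, TATAAA in 10.5% against 13.6%, GGAATG in 15.8% against 14.7% and TGANTCA in 5.3% against 7.8%. The CArG box was in 0 of the 19 and in 1.6% of all windows. Median GC content was 61.0% in the collagen windows and 52.7% in all. The collagen windows were taken only where a region was open, and the others were not, so these shares are descriptions.

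About as many collagen start sites were called changed in each mutant as among other genes, but with another balance of directions in PTC2 and LD. A region was called at a Benjamini-Hochberg adjusted p under 0.05 in limma, over 81985 tested regions, and the 3 comparisons with WT share the same WT libraries. In PTC1, 9 collagen start sites exceeded WT and 9 were below it. That is 60.0%, where 61.8% of the start site regions of 12337 genes were called (33.3% higher and 28.5% lower). In PTC2, 16 were higher and 2 lower, again 60.0%, where 53.8% of genes were called (37.4% higher and 16.3% lower). In LD, 9 were higher and 4 lower, 43.3% in all, where 46.4% of genes were called (16.9% higher and 29.5% lower). The median log2 change of the 30 was -0.02 in PTC1, 0.22 in PTC2 and 0.10 in LD, and that of all genes was 0.03, 0.10 and -0.05. The LD split was 7 higher and 5 lower under scaling to equal medians. Leaving out WT replicate 1 left only 5 called higher. After subtraction of the local shift (the median deviation of the other regions within 1000000 bp) PTC1 split into 7 higher and 11 lower, and PTC2 into 13 and 4. The 2 lower calls in PTC2 became 1 without WT replicate 3 or without PTC2 replicate 3. Scaling to the same median moved the median of all regions in PTC2 against WT from 0.020 to 0.115, and in LD from 0.011 to -0.063. With local centring that median was 0.011 in PTC1 and 0.018 in PTC2. The shares of all genes are from the main fit, and none are given for the alternatives here or below. Whether a split moved more than that of all genes therefore cannot be read from these counts.

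**Figure D1:**
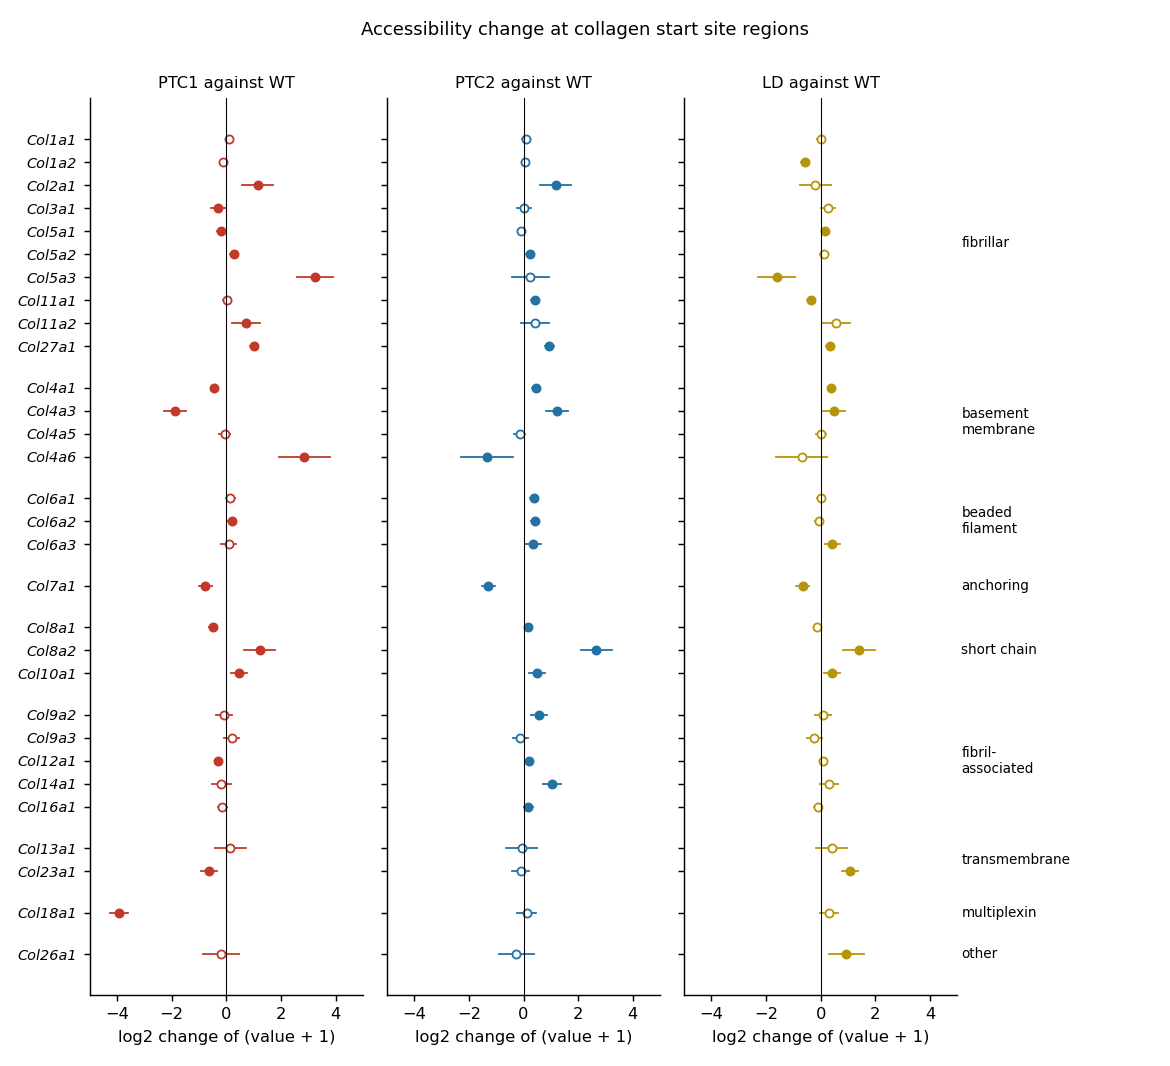
Log2 change of (value + 1) against WT at the start site regions of 30 collagen genes, ordered by class, in PTC1, PTC2 and LD (3 libraries a group). Points are limma estimates, lines their 95% intervals, and filled points have an adjusted p under 0.05. Col18a1 stands at -3.93 and Col5a3 at 3.24 in PTC1, while Col1a1 and Col4a5 have open points in all 3 panels.

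Across the 3 mutants, 4 collagen start sites were called in none (Col1a1, Col4a5, Col9a3 and Col13a1), 9 in 1, 11 in 2 and 6 in all 3. Of the last, 4 had a single direction: Col8a2, Col10a1 and Col27a1 were higher and Col7a1 was lower. Over all genes 12.8% were called in 0 mutants, 31.6% in 1, 36.5% in 2 and 19.2% in 3, near the shares among the 30. There were 9 genes (30.0%, beside 23.4% of all genes) called in opposite directions in different mutants, among them Col4a1, Col4a3 and Col5a3. A log2 change of 1 or more in either direction was called at 10 genes in at least 1 mutant. By mutant these were 5 higher and 2 lower in PTC1 (10.4% of all genes passed that size), 4 and 2 in PTC2 (7.76%), and 2 and 1 in LD (5.71%). Large changes sat mostly at low start sites: of the 16 with a mean under 500, 5 passed in PTC1, 6 in PTC2 and 3 in LD. Those are 31.2%, 37.5% and 18.8%, against 29.9%, 23.0% and 15.7% of all genes at that level. Of the 14 with a mean of 500 or more, 2 passed in PTC1 (Col18a1 and Col27a1) and 0 in PTC2 or LD. Of all 8490 genes at that level 127 passed in PTC1, 72 in PTC2 and 99 in LD.

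Per kilobase of region, the start sites of WT cells ran from 1334 normalised reads at Col5a1 to 34.07 at Col8a2. After Col5a1 (1240 to 1407 over 3 libraries) came Col16a1 (1137 to 1174), Col12a1 (1068 to 1152), Col1a1 (961.9 to 1084) and Col6a1 (915.4 to 970.1), and each of these last 4 overlapped its neighbour in the order. At the other end, Col4a6 (26.53 to 50.4), Col2a1 (34.06 to 77.86) and Col8a2 (17.78 to 46.67) overlapped too. In PTC1, Col5a3 moved from rank 27 to rank 9 of 30 and Col18a1 from rank 12 to rank 29. Region widths come from the authors' region calls, so these densities rank regions and not promoters of a fixed size.

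The type I start sites were called in 1 of 6 comparisons with WT, Col1a2 in LD. The start site region of Col1a1, the alpha 1 chain of type I collagen, lay at chr11:94936016-94937512 and read 1621, 1439 and 1499 in WT, 1571, 1587 and 1719 in PTC1, 1753, 1550 and 1537 in PTC2 and 1608, 1504 and 1475 in LD. All mutant groups overlapped WT, and the log2 changes were 0.10 (95% interval -0.03 to 0.23, adjusted p = 0.187) in PTC1, 0.09 (95% interval -0.05 to 0.22, adjusted p = 0.258) in PTC2 and 0.01 (95% interval -0.12 to 0.14, adjusted p = 0.916) in LD. Many regions near Col1a1 were higher in PTC1 and PTC2, and relative to them Col1a1 was at -0.22 in both (adjusted p = 0.00788 and 0.00924 in limma). Loess normalization gave calls of 0.15 in PTC1 and 0.14 in LD, and scaling to the same median a call of 0.18 in PTC2. A second region 2530 bp before the start (chr11:94933389-94933999) read 757, 723 and 765 in WT, 873, 856 and 880 in PTC1, 1026, 1037 and 1040 in PTC2 and 903, 910 and 959 in LD. Every mutant library exceeded every WT library there, by log2 changes of 0.22, 0.47 and 0.30, all called, although after local centring PTC1 was at -0.10.

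Col1a2, the partner chain of type I collagen, was lower in LD only. Its region (chr6:4505211-4507732) read 2340, 2095 and 2186 in WT, 1990, 2090 and 1983 in PTC1, 2412, 2220 and 2282 in PTC2 and 1543, 1411 and 1444 in LD. The LD libraries lay below all others, at -0.59 (95% interval -0.71 to -0.47, adjusted p = 8.20e-10), and the LD change differed from the mean of PTC1 and PTC2 by 0.56 (adjusted p = 4.09e-11). The regions around Col1a2 were lower in LD as well: those at -10860 and 41142 bp from the start changed by -1.25 and -1.39. Relative to its surroundings Col1a2 was at -0.02 in LD, no longer called. All 3 PTC1 libraries were below WT, but their change of -0.13 missed the threshold (adjusted p = 0.0546).

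**Figure D2:**
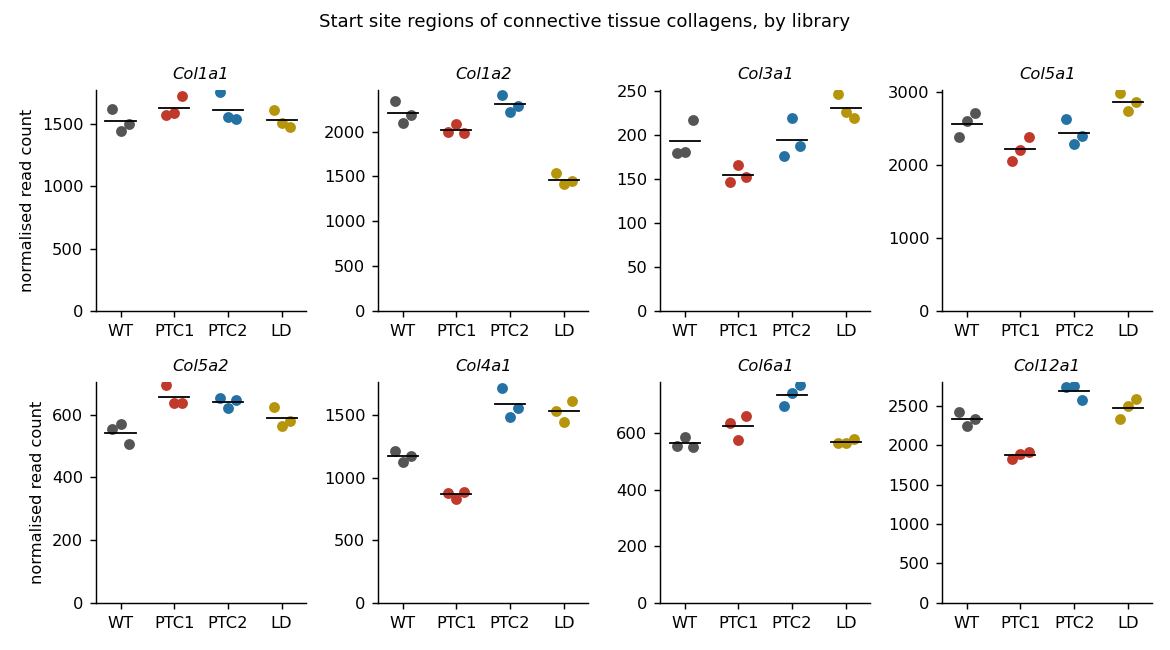
Normalised read count of each library (points) and group mean (lines) at the start site regions of 8 collagens of connective tissue, on linear axes from 0. Col1a2 is lower in the 3 LD libraries (1411 to 1543) than in all others, and Col4a1 is lower in PTC1 (833 to 885) and higher in PTC2 and LD (1448 to 1721) than in WT.

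Col3a1, the chain of type III collagen found beside type I, changed little at its start and more inside the gene. The start site region (chr1:45311265-45311828) read 180, 181 and 217 in WT, 147, 166 and 152 in PTC1, 176, 219 and 187 in PTC2 and 246, 226 and 219 in LD. PTC1 was below WT by -0.31 (95% interval -0.56 to -0.05, adjusted p = 0.033), a call that ended when any of WT replicate 3 (-0.22), PTC1 replicate 1 (-0.27) and PTC1 replicate 3 (-0.30) was left out. LD was at 0.26 (adjusted p = 0.0867) and was called without WT replicate 3 (0.35). A region 4611 bp into the gene (chr1:45315868-45316429) read 175, 176 and 165 in WT, 211, 259 and 255 in PTC1, 138, 102 and 98 in PTC2 and 159, 185 and 154 in LD. Here PTC1 was above WT (0.48) and PTC2 below it (-0.62), with no overlap of the groups, and PTC1 exceeded PTC2 by 1.11 (95% interval 0.82 to 1.39, adjusted p = 5.75e-08).

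The type V genes, whose chains nucleate type I fibrils, went different ways. Col5a1 (chr2:27885596-27887525) read 2391, 2614 and 2715 in WT, 2064, 2214 and 2385 in PTC1, 2633, 2288 and 2400 in PTC2 and 2986, 2749 and 2864 in LD. PTC1 was lower (-0.21 (95% interval -0.34 to -0.09, adjusted p = 0.00325)), a change of -0.02 after chromosome centring but of -0.29, still called, after local centring. LD was higher by 0.16 (adjusted p = 0.034), and that call was lost without WT replicate 1 (0.10), WT replicate 2 (0.17), LD replicate 1 (0.13) or LD replicate 3 (0.16) and turned to -0.02 after local centring. A second region 2304 bp inside Col5a1 (chr2:27887980-27889477) was lower in both premature stop lines, from 1728, 1710 and 1709 in WT to 1276, 1265 and 1325 in PTC1 and 1264, 1248 and 1168 in PTC2, and stayed at 1753, 1808 and 1743 in LD. Its log2 change was -0.41 (95% interval -0.53 to -0.30, adjusted p = 2.76e-07) in PTC1 and -0.48 (95% interval -0.60 to -0.37, adjusted p = 1.73e-08) in PTC2.

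Col5a2 (chr1:45502430-45503599), 191744 bp from Col3a1, read 554, 570 and 506 in WT, 695, 639 and 638 in PTC1, 653, 623 and 646 in PTC2 and 626, 565 and 580 in LD. It was higher in PTC1 (0.28 (95% interval 0.12 to 0.43, adjusted p = 0.00323)) and in PTC2 (0.24, adjusted p = 0.0101), and the PTC2 call was lost without WT replicate 3 (0.19) and under both centrings (0.10 and 0.08). A region 1589 bp before its start (chr1:45504619-45505123) moved further and in both directions: 180, 187 and 147 in WT, 107, 108 and 107 in PTC1, 245, 272 and 261 in PTC2 and 215, 288 and 218 in LD. PTC1 lay below all WT libraries (-0.66) and PTC2 and LD above them (0.60 and 0.48), all called, and the LD change was 0.19 and not called after local centring.

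Col5a3, the third type V chain, had the largest rise among the 30 start site regions in PTC1. Its narrow start site region (chr9:20815025-20815254) read 14, 17 and 16 in WT, 147, 145 and 177 in PTC1, 13, 18 and 28 in PTC2 and 4, 3 and 7 in LD. PTC1 stood far above the other groups, LD lay below WT in every library, and PTC2 overlapped WT. The log2 change was 3.24 (95% interval 2.57 to 3.90, adjusted p = 8.84e-10) in PTC1, 0.25 (95% interval -0.42 to 0.92, adjusted p = 0.528) in PTC2 and -1.61 (95% interval -2.28 to -0.95, adjusted p = 0.000156) in LD. With values this low the pseudocount matters: with 10 in place of 1 the LD change was -0.82. The region 2281 bp inside the gene (chr9:20812323-20813249) was already open in WT and moved the same way, with 961, 955 and 937 in WT, 1651, 1677 and 1742 in PTC1, 1143, 1188 and 1227 in PTC2 and 670, 603 and 673 in LD. Its log2 changes were 0.83, 0.32 and -0.55, all called, and the mean of PTC1 and PTC2 exceeded LD by 1.13 (95% interval 1.01 to 1.24, adjusted p = 1.30e-16). The neighbouring region listed with Rdh8, at -7888 bp from the Col5a3 start, was higher in PTC1 (mean 207.7 in WT and 587.7 in PTC1) and lower in LD (89.67), while PTC2 stood at 148.3.

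Col27a1, a fibrillar collagen of cartilage, was higher in every mutant library than in WT: 818, 761 and 731 in WT, 1450, 1501 and 1728 in PTC1, 1565, 1433 and 1463 in PTC2 and 1031, 883 and 998 in LD at chr4:63215062-63217811. The changes were 1.01 (95% interval 0.86 to 1.16, adjusted p = 7.72e-13) in PTC1, 0.95 (95% interval 0.80 to 1.10, adjusted p = 3.92e-12) in PTC2 and 0.33 (95% interval 0.18 to 0.48, adjusted p = 0.000433) in LD, and PTC1 was at 0.65 after local centring. Col2a1, the type II collagen of cartilage, was read at a weak region 2639 bp inside the gene (chr15:98001850-98002261), with 14, 29 and 32 in WT, 52, 55 and 54 in PTC1, 56, 44 and 67 in PTC2 and 20, 23 and 19 in LD. Both premature stop lines were above WT (1.15 and 1.18, adjusted p = 0.000692 and 0.000569), LD overlapped WT, and PTC1 was at 0.72 after chromosome centring and at 0.70 after local centring.

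Col11a1, a type XI chain that copolymerises with types II and V, read 776, 786 and 845 in WT, 798, 796 and 865 in PTC1, 1126, 1017 and 1104 in PTC2 and 594, 636 and 634 in LD. PTC2 lay above all WT libraries and LD below them, at 0.43 (95% interval 0.29 to 0.58, adjusted p = 6.71e-06) and -0.37 (95% interval -0.51 to -0.22, adjusted p = 9.48e-05), and after local centring the changes were 0.23 and -0.88. Col11a2, another type XI chain, was at 0.71 in PTC1 (WT 26, 35 and 45, PTC1 65, 46 and 62). Its adjusted p of 0.016 passed the threshold no longer when any of WT replicate 1 (0.51), PTC1 replicate 1 (0.62) and PTC1 replicate 3 (0.65) was left out, and under both centrings (0.50 and 0.48). Over all 10 fibrillar genes with a region, PTC1 had 5 higher and 2 lower, PTC2 had 4 and 0, and LD had 2 and 3. The shares of all genes were 33.3% and 28.5%, 37.4% and 16.3%, and 16.9% and 29.5% in that order.

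**Figure D3:**
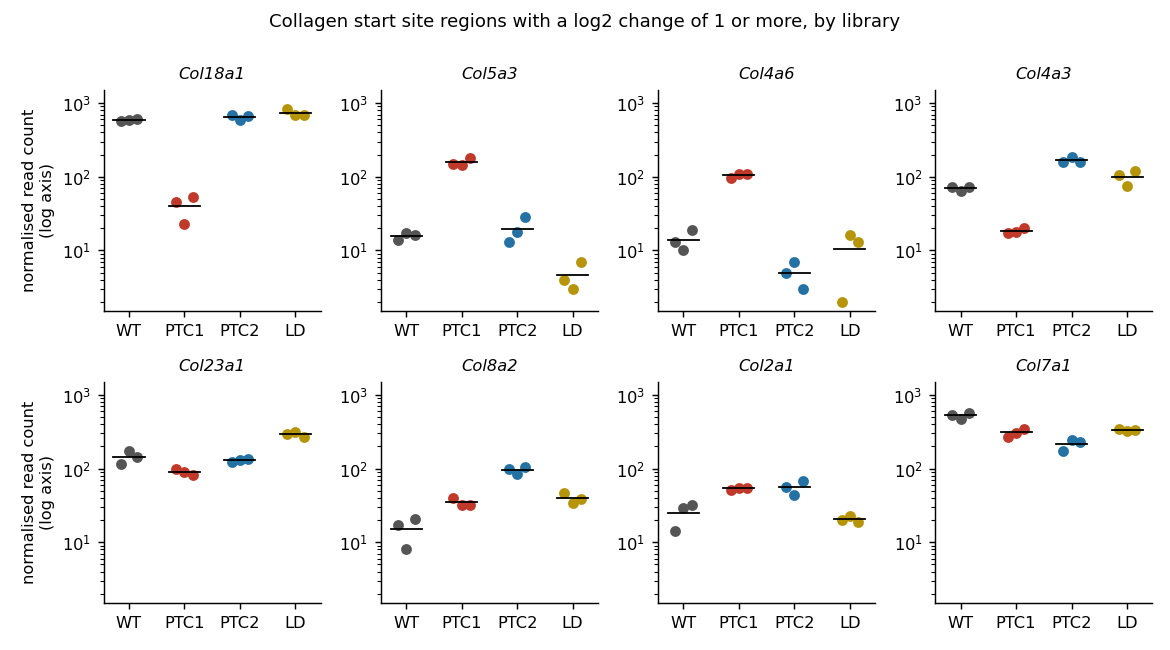
Normalised read count of each library (points) and group mean (lines) on a log axis at 8 collagen start site regions with a called log2 change of 1 or more. Col18a1 drops to 23 to 53 in PTC1, Col5a3 and Col4a6 rise above 90 in PTC1 only, and Col4a3 is below WT in PTC1 and above it in PTC2.

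Among the basement membrane genes, Col4a1 (chr8:11311789-11314090), which encodes a chain of the common type IV network and whose region also covers the start of Col4a2, read 1213, 1129 and 1176 in WT, 881, 833 and 885 in PTC1, 1721, 1485 and 1561 in PTC2 and 1533, 1448 and 1612 in LD. PTC1 was below and PTC2 and LD were above all WT libraries. The changes were -0.44 (95% interval -0.57 to -0.30, adjusted p = 1.26e-06), 0.44 (95% interval 0.30 to 0.57, adjusted p = 1.43e-06) and 0.38 (95% interval 0.25 to 0.52, adjusted p = 1.69e-05), and PTC2 was at 0.21 after chromosome and 0.20 after local centring, still called. PTC1 and PTC2 differed by -0.87 (adjusted p = 1.20e-12).

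Col4a3, a chain of the specialised network of the kidney filter, had the same order at a lower level and with larger steps. Its region (chr1:82586601-82587358), which also covers the start of Col4a4, read 72, 65 and 73 in WT, 17, 18 and 20 in PTC1, 157, 184 and 158 in PTC2 and 106, 74 and 120 in LD. PTC1 lay below and the other mutants above all WT libraries, at -1.88 (95% interval -2.28 to -1.48, adjusted p = 1.78e-09) in PTC1, 1.23 (95% interval 0.83 to 1.64, adjusted p = 3.49e-06) in PTC2 and 0.48 (95% interval 0.08 to 0.88, adjusted p = 0.0434) in LD. The LD call was lost without any 1 of 8 libraries (each WT and each PTC2 library, LD replicate 1 or LD replicate 3), with values from 0.34 to 0.51. Regions inside Col4a3 that are listed without a gene symbol moved too. The one 10525 bp from the start had means of 51.33 in WT, 12 in PTC1 and 148 in PTC2 (log2 changes -2.00 and 1.52). The one 25864 bp in had means of 179.3, 25.33 and 186.7, so it was lower in PTC1 (-2.77) and at 0.05 in PTC2. Farther along, regions 109118 and 114886 bp from the start were higher in PTC1 (1.10 and 1.34) and PTC2 (2.02 and 1.00). The region at 47712 bp was at 0.25 in PTC1, not called, and at 2.13 in PTC2.

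Col4a5 and Col4a6, chains that share a network in smooth muscle and other basement membranes, start 1309 bp apart on the X chromosome in opposite directions. Col4a6 (chrX:141473737-141474114) read 13, 10 and 19 in WT, 95, 108 and 109 in PTC1, 5, 7 and 3 in PTC2 and 2, 16 and 13 in LD. Only PTC1 was above WT, at 2.85 (95% interval 1.91 to 3.79, adjusted p = 3.89e-06). PTC2 was below all WT libraries (-1.33, adjusted p = 0.0138), a call lost without WT replicate 3 (-1.11) or PTC2 replicate 3 (-1.07), after chromosome centring (-1.02) and without the trend, and of size -0.67 with a pseudocount of 10. The LD libraries were spread from 2 to 16, and the change of -0.70 was not called. Col4a5 (chrX:141475142-141476264), separated by 1028 bp, read 574, 547 and 527 in WT, 490, 513 and 577 in PTC1, 516, 430 and 552 in PTC2 and 541, 541 and 580 in LD. All groups overlapped WT and the changes were -0.06 (95% interval -0.25 to 0.12, adjusted p = 0.563), -0.14 (95% interval -0.33 to 0.04, adjusted p = 0.176) and 0.01 (95% interval -0.17 to 0.20, adjusted p = 0.925); after chromosome centring LD was called at 0.51.

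Col18a1, the type XVIII collagen of basement membranes whose end fragment is endostatin, had the largest fall among the 30 start site regions. Its start site region (chr10:77165568-77166751) read 579, 591 and 613 in WT, 45, 23 and 53 in PTC1, 679, 590 and 661 in PTC2 and 834, 696 and 680 in LD. PTC1 was about 15.2-fold below WT on the log2(value + 1) scale (-3.93 (95% interval -4.27 to -3.59, adjusted p = 3.80e-18)), and the other mutants were at 0.11 (95% interval -0.23 to 0.45, adjusted p = 0.581) and 0.30 (95% interval -0.04 to 0.64, adjusted p = 0.134). The PTC1 change was -4.06 after local centring. RefSeq also gives Col18a1 a start farther into the gene, whose promoter window (chr10:77113656-77113955) overlapped no region. The fall therefore concerns the upstream start only. The region 2550 bp before the start read 57, 87 and 77 in WT and 68, 77 and 54 in PTC1 and overlapped (-0.14, adjusted p = 0.562). Regions inside the gene went both ways in PTC1. Those 12893 and 14569 bp from the start fell by smaller steps (-0.98 and -0.72). Those at 7552, 42386, 45030 and 58640 bp were called higher (0.62, 1.45, 1.98 and 1.45). Before the start, a weak region at -13726 bp went from a mean of 5.667 in WT to 38.67 in PTC1 (2.65). Col6a1, 440380 bp away on the same chromosome, was at 0.14 in PTC1. All LD libraries were above WT, and that change was called when only WT and LD were fitted and when PTC1 replicate 2 was left out (0.30 in both).

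**Figure D4:**
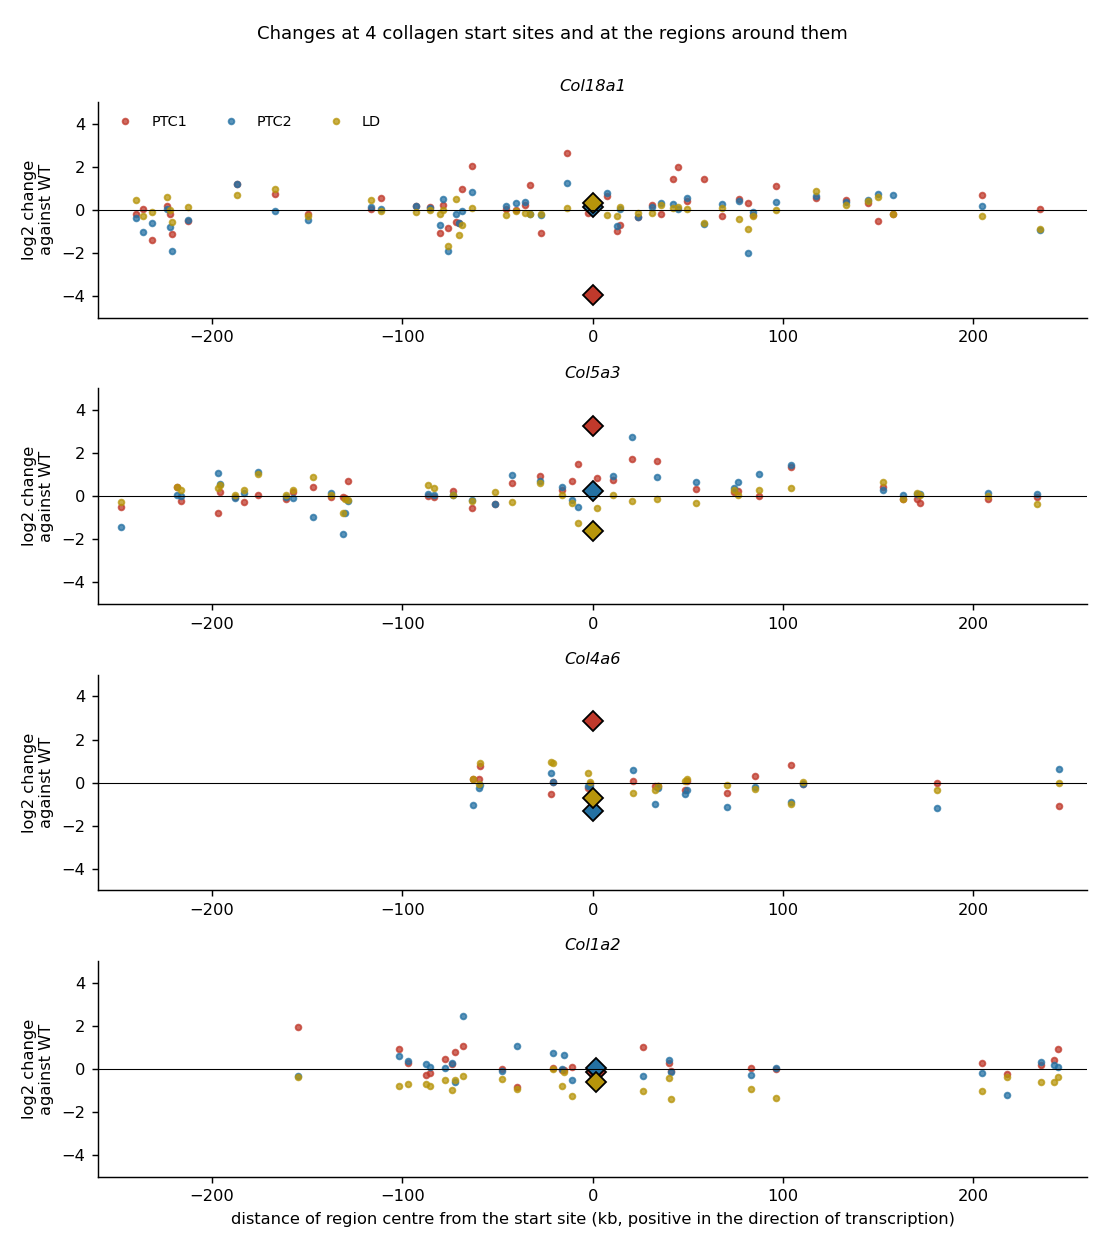
Log2 change against WT of every region within 250 kb of the start sites of Col18a1, Col5a3, Col4a6 and Col1a2, plotted by distance from the start; diamonds are the start site regions and dots all others. The PTC1 diamonds of Col18a1, Col5a3 and Col4a6 lie outside the dots around them, while the LD diamond of Col1a2 lies among LD dots that are mostly below 0.

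Of the membrane-spanning collagens, Col23a1 differed in LD and PTC1 and Col13a1 did not pass in any mutant. Col23a1 (chr11:51289373-51290267) read 114, 171 and 142 in WT, 99, 91 and 81 in PTC1, 123, 130 and 137 in PTC2 and 299, 316 and 271 in LD. The LD libraries were all above and the PTC1 libraries all below WT, at 1.06 (95% interval 0.77 to 1.36, adjusted p = 5.62e-07) and -0.64 (95% interval -0.93 to -0.34, adjusted p = 0.000401), while PTC2 lay within the WT range (-0.11, adjusted p = 0.527). Col13a1, at means of 30.67 in WT and 41 in LD, changed by 0.14, -0.06 and 0.40, with an upper 95% bound of 0.96 for LD. Col26a1, which belongs to no structural class, was called in LD (22, 25 and 15 in WT, 38, 38 and 43 in LD; 0.94, adjusted p = 0.0156). That call was lost without WT replicate 3 (0.73) or LD replicate 3 (0.88).

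The 3 type VI genes with a region, whose chains assemble into 1 heterotrimer, were all called higher in PTC2, where 37.4% of all genes were. Col6a1 (chr10:76725784-76726387) read 553, 585 and 552 in WT, 634, 574 and 661 in PTC1, 695, 741 and 769 in PTC2 and 563, 565 and 579 in LD. All PTC2 libraries exceeded WT (0.38 (95% interval 0.22 to 0.54, adjusted p = 0.000106)), and PTC1 and LD overlapped it (0.14 and 0.01). Col6a2, 102538 bp away, rose by 0.43 (95% interval 0.28 to 0.58, adjusted p = 1.07e-05) in PTC2, was at -0.05 in LD, and was called at 0.19 in PTC1 (adjusted p = 0.0297). Leaving out WT replicate 1 or 2 or PTC1 replicate 1 or 3 ended the PTC1 call, with values from 0.15 to 0.19. Col6a3, on another chromosome, was at 0.35 in PTC2 and 0.43 in LD (adjusted p = 0.0294 and 0.0109). Its PTC2 libraries (412, 287 and 367) overlapped WT (254, 269 and 304). The PTC2 call was lost without WT replicate 1 or 2 or PTC2 replicate 1 or 3 (0.24 to 0.34) and after local centring (0.07), and the LD call without WT replicate 1 (0.38) or LD replicate 2 (0.37). A region 4853 bp before the Col6a3 start (chr1:90848433-90849215) read 393, 457 and 419 in WT, 556, 567 and 566 in PTC1, 519, 625 and 574 in PTC2 and 229, 224 and 246 in LD. It was higher in both premature stop lines (0.41 and 0.43) and lower in LD (-0.86), and the mean of the first 2 exceeded LD by 1.28 (95% interval 1.12 to 1.44, adjusted p = 1.69e-14). After local centring the rises were 0.17 and 0.15 and were not called.

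Col7a1, whose product forms the fibrils that anchor the epidermis to the dermis, had the only collagen start site region called lower in all 3 mutants. Its region (chr9:108952520-108953477), centred 587 bp before the start, read 537, 470 and 574 in WT, 270, 309 and 350 in PTC1, 176, 245 and 228 in PTC2 and 349, 319 and 337 in LD. Every mutant library was below every WT library. The changes were -0.77 (95% interval -1.01 to -0.53, adjusted p = 1.68e-06) in PTC1, -1.29 (95% interval -1.53 to -1.05, adjusted p = 1.20e-10) in PTC2 and -0.65 (95% interval -0.89 to -0.41, adjusted p = 3.82e-05) in LD, and PTC1 was at -0.48 after chromosome centring, still called. PTC1 exceeded PTC2 by 0.52 (adjusted p = 0.000297).

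Among the network-forming short chains, Col8a2 rose in all mutants. Col8a2, a type VIII chain of the cornea and vessel wall, was read at a weak region 4567 bp inside the gene (chr4:126291135-126291585), with 17, 8 and 21 in WT, 40, 32 and 32 in PTC1, 99, 84 and 105 in PTC2 and 46, 34 and 39 in LD. All mutant libraries were above WT, at 1.22 (95% interval 0.65 to 1.78, adjusted p = 0.000396), 2.66 (95% interval 2.09 to 3.23, adjusted p = 2.09e-09) and 1.40 (95% interval 0.83 to 1.97, adjusted p = 0.000126). Col8a1, the other type VIII chain, went from 1316, 1252 and 1313 in WT to 872, 972 and 930 in PTC1 (-0.49, adjusted p = 1.44e-07), a change of -0.09 and not called after chromosome centring. Local centring left this fall of Col8a1 at -0.47, still called. Its rise of 0.18 in PTC2 was lost without WT replicate 2 (0.16) or PTC2 replicate 1 (0.14). A small region 2070 bp inside Col8a1 (chr16:57752589-57752745) read 104, 146 and 116 in WT, 76, 58 and 46 in PTC1, 72, 56 and 68 in PTC2 and 67, 88 and 79 in LD. It was lower in every mutant (-1.03, -0.88 and -0.63), with the PTC1 change at -0.64 after chromosome centring and the LD call lost without WT replicate 2 (-0.50) or LD replicate 1 (-0.53). Col10a1, the collagen of hypertrophic cartilage, was higher by 0.46, 0.48 and 0.42. Leaving out WT replicate 1 ended the calls in PTC1 (0.35) and LD (0.31), and the LD call was also lost without WT replicate 2 (0.37) or LD replicate 2 (0.30).

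Of 5 fibril-associated collagens, which coat fibrils rather than form them, 4 were called higher in PTC2, 0 in PTC1 and 0 in LD, where 37.4%, 33.3% and 16.9% of all genes were. The PTC2 calls of Col12a1 and Col16a1 were lost under an alternative or with a library left out. Col12a1 (chr9:79716956-79719058), a long collagen on the surface of type I fibrils, read 2422, 2244 and 2329 in WT, 1827, 1885 and 1911 in PTC1, 2741, 2753 and 2574 in PTC2 and 2330, 2493 and 2584 in LD. PTC1 was below all WT libraries (-0.31 (95% interval -0.42 to -0.21, adjusted p = 8.05e-06)) and PTC2 above them (0.21 (95% interval 0.10 to 0.31, adjusted p = 0.00146)), but chromosome centring took the PTC1 change to -0.03 and local centring the PTC2 change to -0.03. LD was at 0.08 (adjusted p = 0.209), at 0.24 with loess and at -0.20 after local centring, both called. Col14a1, another fibril-surface collagen, read 89, 123 and 102 in WT, 109, 73 and 97 in PTC1, 246, 189 and 210 in PTC2 and 141, 113 and 135 in LD at chr15:55306194-55307169, 1068 bp before its listed start. Only PTC2 was above all WT libraries (1.04 (95% interval 0.70 to 1.37, adjusted p = 3.61e-06)). Col9a2 was higher by 0.56 in PTC2 and Col9a3 passed in none.

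Col16a1 combined a steady start site with a strong fall upstream. Its start site region was at -0.14, 0.18 and -0.09; the PTC2 call (adjusted p = 0.0338) was lost without any 1 WT library or PTC2 replicate 1, with values from 0.09 to 0.19. A region 3572 bp before the start (chr4:130043999-130044537) read 354, 368 and 397 in WT, 152, 179 and 161 in PTC1, 145, 110 and 119 in PTC2 and 264, 231 and 289 in LD. All mutant libraries were below WT, at -1.18 (95% interval -1.44 to -0.93, adjusted p = 2.37e-09), -1.58 (95% interval -1.84 to -1.33, adjusted p = 6.39e-12) and -0.52 (95% interval -0.77 to -0.26, adjusted p = 0.00113), and the mean of PTC1 and PTC2 was below LD by -0.87 (adjusted p = 4.63e-08).

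Of the 20 regions away from the start sites, PTC1 had 6 higher and 6 lower, where 61.8% of all tested regions were called (30.6% higher and 31.2% lower). PTC2 had 6 higher and 5 lower (58.2% of all regions, 28.4% and 29.8%), and LD had 3 and 6 (47.4%, 22.6% and 24.7%). The mean of PTC1 and PTC2 exceeded LD at 4 and was below it at 5 (64.8% of all regions, 32.1% and 32.6%), and PTC1 exceeded PTC2 at 4 and was below it at 6 (62.5%, 31.6% and 30.9%). After local centring the splits were 3 and 7 in PTC1, 3 and 5 in PTC2, and 2 and 7 in LD, and with loess 4 and 5 in LD. Only the Col8a1 and Col16a1 regions above reached a log2 change of 1 in any mutant.

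The mutants were also compared with each other. Between the mean of PTC1 and PTC2 and LD, 9 collagen start sites were higher and 9 lower, where 67.0% of genes were called (45.2% higher and 21.7% lower). Scaling to the same median gave 14 and 8, and the 21 regions within 1000 bp of the start gave 5 and 8. A call for this mean does not show that both premature stop lines differ from LD. At Col4a6 the group means were 104 in PTC1, 5 in PTC2 and 10.33 in LD, and at Col4a3 18.33, 166.3 and 100. Both genes were called, with PTC1 and PTC2 on opposite sides of LD. Between PTC1 and PTC2, 4 were higher and 15 lower in PTC1 (63.3%), where 54.3% of genes were called (21.1% higher and 33.2% lower). A log2 change of 1 or more was called at 3 higher and 3 lower against LD (9.72% of genes) and at 2 and 4 between PTC1 and PTC2 (11.0%). The PTC1 and PTC2 median was -0.21, beside -0.04 over all genes. The largest differences between the premature stop lines were at Col4a6 (4.18), Col18a1 (-4.04), Col4a3 (-3.11) and Col5a3 (2.99).

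Genes that modify, export, cut and crosslink collagen were read the same way. Of 37 such genes 30 had a region; PTC1 had 7 higher and 12 lower, PTC2 had 12 and 3, and LD had 7 and 8, with medians of -0.08, 0.08 and 0.11. The called shares of 63.3%, 50.0% and 50.0% were near the 61.8%, 53.8% and 46.4% of all genes. With loess the LD split was 14 and 1 and the PTC1 split 11 and 12. With scaling to the same median the splits were 14 and 1 in PTC2 and 5 and 10 in LD. Without LD replicate 2 only 3 were lower in LD and without WT replicate 2 or 3 only 5, while in PTC2 only 1 was lower without WT replicate 2 or PTC2 replicate 2. Adamts2, the protease that removes the amino-terminal propeptide of procollagen, read 289, 368 and 413 in WT, 63, 56 and 62 in PTC1, 870, 868 and 837 in PTC2 and 654, 635 and 632 in LD. PTC1 lay below and PTC2 and LD above all WT libraries, at -2.53 (95% interval -2.75 to -2.31, adjusted p = 4.94e-18), 1.28 (adjusted p = 2.63e-11) and 0.86 (adjusted p = 1.37e-07). P4ha3, a prolyl 4-hydroxylase subunit that helps stabilise the helix, read 141, 137 and 153 in WT, 12, 13 and 28 in PTC1, 235, 230 and 267 in PTC2 and 171, 136 and 158 in LD, so only PTC1 fell (-3.05 (95% interval -3.48 to -2.63, adjusted p = 2.05e-13)) and PTC2 rose (0.76). Other members rose in PTC1: Tmem38b, an ion channel of the endoplasmic reticulum, by 1.68 and Tll2, a tolloid proteinase, by 1.40, while Bmp1 (-0.09), Tll1 (0.10) and Adamts14 (0.13) were not called there. After local centring Bmp1 was called at -0.33 and Tll1 at -0.26, and Adamts14 was called at 0.18 with loess and at 0.19 without WT replicate 3.

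Pcolce2, an enhancer of the carboxy-terminal propeptide protease, had a mean of 778.7 in WT and 245 in PTC1, a fall that PTC2 (mean 865.7) and LD (943) did not show (-1.67 (95% interval -1.84 to -1.49, adjusted p = 2.92e-16)). P3h2, a prolyl 3-hydroxylase, fell by a log2 change of -1.12 in PTC1, of which -0.34 remained after local centring. Creb3l1, a transcription factor that activates type I collagen genes in osteoblasts, was higher in all 3 mutants: 195, 169 and 195 in WT, 323, 290 and 370 in PTC1, 477, 461 and 478 in PTC2 and 394, 373 and 349 in LD. Every mutant library exceeded WT, by 0.81, 1.34 and 1.00. Lox, the enzyme that crosslinks collagen, was lower in PTC1 (-0.53) and LD (-0.69), and chromosome centring left -0.07 (not called) and -0.15. Local centring left -0.31 and -0.16, both called. Mia3, needed for procollagen export from the endoplasmic reticulum, rose in PTC2 (0.48), and Tll1, a procollagen C-proteinase, in PTC2 (0.36) and LD (0.34). For Tll1, chromosome centring took the PTC2 change to 0.14 and local centring the LD change to 0.16, neither called. Local centring left the Tll1 change in PTC2 at 0.26, still called. Colgalt1, which adds galactose to hydroxylysine, was at 0.36 in PTC1 and 0.45 in PTC2, and at 0.04 and 0.11, not called, after local centring.

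**Figure D5:**
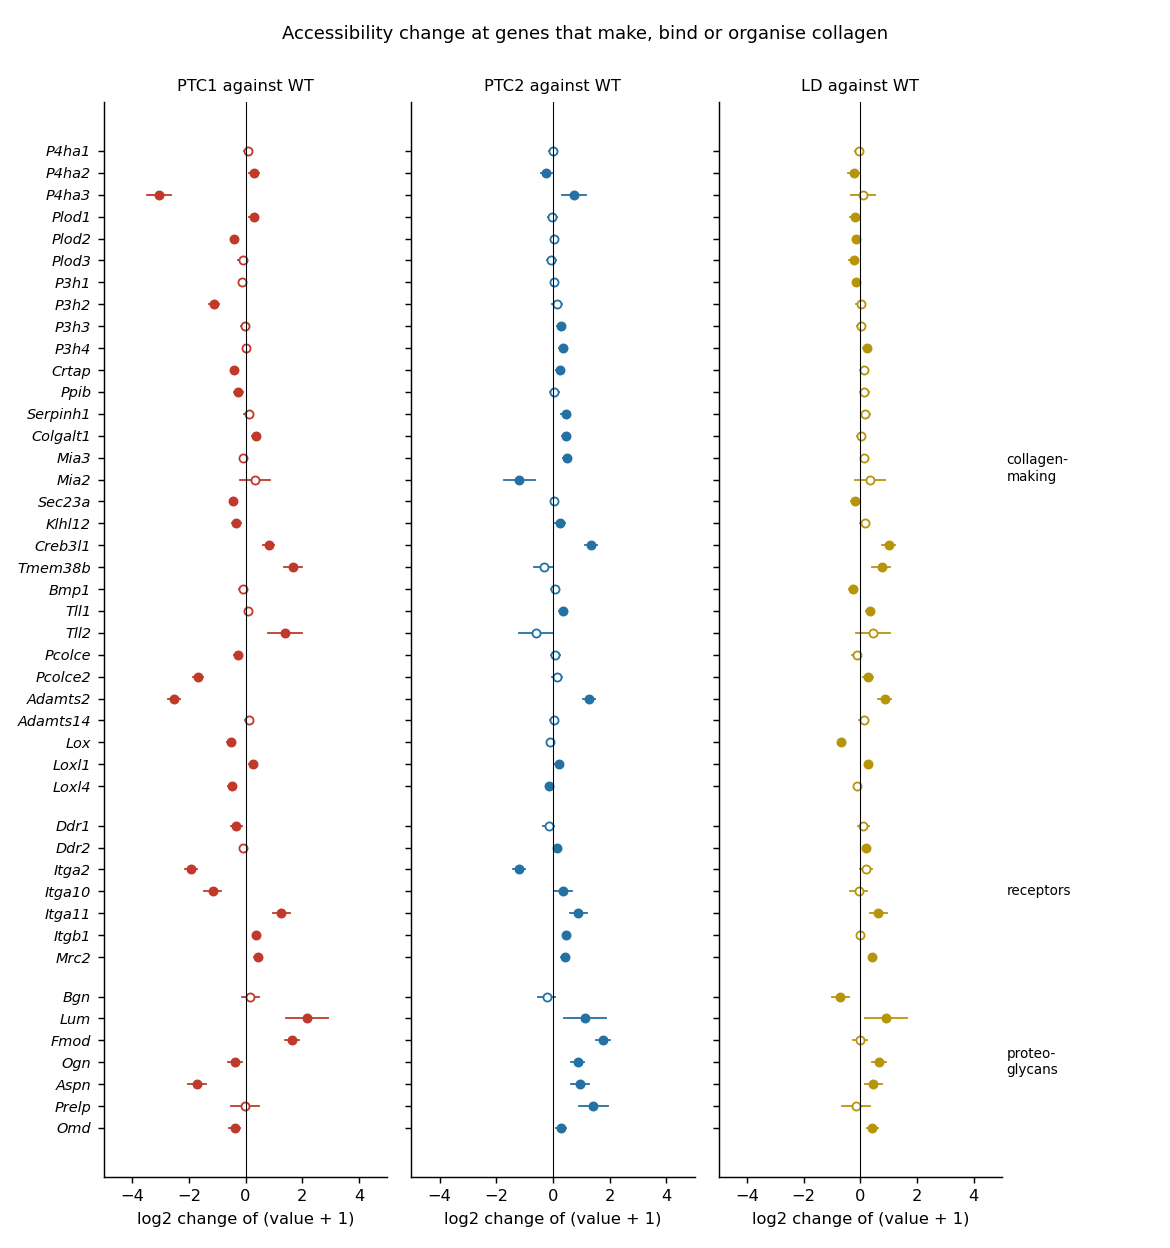
Log2 change of (value + 1) against WT at the start site regions of 30 collagen-making genes, 7 collagen receptors and 7 fibril-associated proteoglycans (3 libraries a group). Each gene is shown at its listed region nearest the start, which lies 1524 bp off for Ddr1, 2219 for Fmod, 2763 for Mia2 and 2812 for Lum. Points are limma estimates, lines their 95% intervals, and filled points have an adjusted p under 0.05. P4ha3 and Adamts2 lie furthest to the left in PTC1, at -3.05 and -2.53, and Fmod lies near 1.7 in PTC1 and PTC2 but at -0.01 in LD.

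Collagen receptors were read at their start sites too. Of 11 genes 7 had a region; PTC1 had 3 higher and 3 lower, PTC2 had 5 and 1, and LD had 3 and 0. Called shares were 85.7%, 85.7% and 42.9% of the 7, beside 61.8%, 53.8% and 46.4% of all genes. Itga2, the collagen-binding integrin alpha 2, read 384, 405 and 368 in WT, 104, 104 and 96 in PTC1, 162, 180 and 163 in PTC2 and 438, 424 and 478 in LD. Both premature stop lines lay below all WT libraries (-1.92 (95% interval -2.14 to -1.70, adjusted p = 3.25e-15) and -1.19 (95% interval -1.41 to -0.97, adjusted p = 1.26e-10)), and LD above them without passing the test (0.21, adjusted p = 0.112). Itga11, the fibroblast integrin for fibrillar collagen, was higher in all 3, by 1.26, 0.90 and 0.63. Mrc2, the endocytic receptor for collagen fragments, was higher by 0.44, 0.42 and 0.43. Itga10, another collagen-binding integrin, fell in PTC1 (-1.16), and its PTC2 value of 0.36 was called with all libraries but not with any 1 WT or PTC2 library left out (0.34 to 0.40). Itgb1, the beta chain these integrins share, was higher in PTC1 (0.36, or 0.10 and not called after local centring) and PTC2 (0.46). For the discoidin receptors, the mean of PTC1 and PTC2 against LD was at -0.34 for Ddr1 and -0.17 for Ddr2, the latter turning positive after local centring (0.25). The Ddr1 region lay outside the gene, 1524 bp from its listed start.

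The small leucine-rich proteoglycans bind fibrils and set their diameter. Of 10 genes 7 had a region. PTC1 had 2 higher and 3 lower, PTC2 had 6 and 0, and LD had 4 and 1. The 7 are not separate loci: Aspn, Omd and Ogn (regions starting at 49544090, 49581348 and 49607618) are neighbours on chromosome 13. Prelp and Fmod (133921359 and 134039130) lie near each other on chromosome 1. Around the chromosome 13 genes, median log2 changes of other regions ran from -0.31 to -0.29 in PTC1 and from 0.21 to 0.22 in PTC2. All genes were 33.3% higher and 28.5% lower in PTC1, with 37.4% and 16.3% for PTC2 and 16.9% and 29.5% for LD. Fmod, encoding fibromodulin, was taken at a region 2219 bp inside the gene. It read 137, 139 and 131 in WT, 455, 391 and 420 in PTC1, 414, 487 and 510 in PTC2 and 159, 135 and 113 in LD. Both premature stop lines were far above WT (1.63 (95% interval 1.38 to 1.88, adjusted p = 1.53e-12) and 1.78 (95% interval 1.53 to 2.03, adjusted p = 2.52e-13)) and LD overlapped it (-0.01). Aspn, encoding asporin, went the way of Adamts2, from a mean of 129.7 in WT down to 38.67 in PTC1 and up to 248.7 in PTC2, with LD at 177.7, or -1.71, 0.95 and 0.46. The LD call of Aspn was lost without WT replicate 2 (0.33) or LD replicate 1 (0.42). Ogn rose in PTC2 (0.87) and LD (0.66), and Prelp in PTC2 (1.43). Lum, encoding lumican, was read at a weak region outside the gene, 2812 bp from its listed start, with 11, 7 and 10 in WT. It rose in PTC1 (2.18) and PTC2 (1.12) and was called in LD (0.90, adjusted p = 0.0398 in limma). That LD call ended without WT replicate 2 (0.73), WT replicate 3 (0.96), LD replicate 2 (0.58) or LD replicate 3 (0.84). Omd was at -0.38 in PTC1, 0.28 in PTC2 and 0.42 in LD, all called. Local centring left -0.07 and 0.06 for Omd in PTC1 and PTC2, and its PTC2 call ended when WT replicate 3 or PTC2 replicate 1 was left out (0.22 each). Bgn, encoding biglycan on the X chromosome, fell in LD (-0.71) but was at -0.21 after chromosome centring and at 0.19 after local centring, neither called.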

How the data were processed

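ATAC-seq was run on 12 samples of 25000 cells, transposed for 30 min at 37 °C, per the labels' protocols. Build mm10, DESeq2 1.30.1, Picard 2.25.5, STAR 2.7.10a and Trimmomatic 0.39 appear in the submitters' processing notes without roles. For the peak caller and any Tn5 shift: not given in the sources used here. The deposited table holds a score per region and sample, by its values a count of reads that the authors divided by a single library factor and rounded. It also holds the listed gene, the distance to its start and the fraction of the region in the gene body, as the authors computed them. As the values are scaled, no count test was run. Log2(value + 1) was fitted with limma 3.58.1 (R 4.3.3), 1 mean per group over 12 libraries, empirical Bayes with trend; 81985 regions with a mean of at least 5 were tested and 10 left out. A call is a Benjamini-Hochberg adjusted p under 0.05. The fit was tested on simulated data. The design text calls the 3 samples of a group biological replicates, the labels name no batch, and p-values measure the spread between these samples. Depth is given in the report; it limits regions with low values most. Replicate numbers do not pair the groups.

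Members and gene lists were chosen with earlier results of these data known. Values in every library are given for 8 collagens of connective tissue and for start sites within 1000 bp that changed by a log2 of at least 1 with no overlap and a mean of at least 20; the other genes and regions shown in full were added after their values were seen. List genes named are up to 4 per comparison with the lowest adjusted p, beside Tmem38b, Tll2, Bmp1 and Adamts14, added later. Alternatives were other scalings (same median, loess), chromosome and local centring, pseudocount 10, no filter or a mean of at least 20, only the groups compared, a replicate block, no trend, each replicate left out, and the region with the highest mean of a gene.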

Additional observations from a re-analysis of the deposited data

Results flagged for a closer look

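At 9 collagen start sites, 2 mutants were called in opposite directions against WT and the difference between those mutants was itself called. The differences were tested in the same limma fit, with adjusted p-values over all regions. They share the WT libraries and are not independent. Because the genes were chosen for opposite calls against WT, a called difference between the mutants is close to given by the choice and is a description here. Several of the calls end with 1 library left out: Col5a1 in LD (0.10 to 0.17 without WT replicate 1, WT replicate 2, LD replicate 1 or LD replicate 3), Col4a3 in LD (0.34 to 0.51 without any WT or PTC2 library, LD replicate 1 or LD replicate 3), Col4a6 in PTC2 (-1.11 without WT replicate 3, -1.07 without PTC2 replicate 3) and Col8a1 in PTC2 (0.16 without WT replicate 2, 0.14 without PTC2 replicate 1).

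PTC1 was below PTC2 at Col4a3 by -3.11 (adjusted p = 2.35e-14), at Col4a1 by -0.87 (adjusted p = 1.20e-12), at Col8a1 by -0.67 (adjusted p = 2.23e-10) and at Col12a1 by -0.52 (adjusted p = 8.74e-10), and above it at Col4a6 by 4.18 (adjusted p = 3.62e-09). PTC1 was below LD at Col4a3 by -2.36 (adjusted p = 8.91e-12), at Col23a1 by -1.70 (adjusted p = 1.78e-11), at Col4a1 by -0.82 (adjusted p = 3.69e-12) and at Col5a1 by -0.37 (adjusted p = 3.96e-06), and above it at Col5a3 by 4.85 (adjusted p = 8.19e-14). PTC2 was above LD at Col11a1 by 0.80 (adjusted p = 8.01e-11). In these pairs all 3 libraries of a mutant lay beyond all 3 of the other.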

How the results depend on the processing

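Of the changes at collagen regions, 5244 of the alternative values kept direction and side of the threshold, 147 lost the call, 95 gained it and 14 reversed. For list genes these were 2816, 92, 49 and 13. No filter, no trend, only the groups compared and the replicate block leave the log2 change itself as it was. So does leaving out a library of a group outside the comparison. Many kept values were therefore given beforehand, and their number does not measure robustness. Calls nearest the threshold depend on single libraries, and low regions on the pseudocount. The replicate numbers did not pair the groups (correlations of -0.00443 to 0.0447 for same-numbered samples, -0.0396 to 0.0222 for others); with the replicate block 10 collagen start sites were lower in PTC1, where 9 were without it, and no count moved by over 1.5 times. The limma-voom and edgeR alternatives were not run, since the values are not raw counts.

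Counts of start sites moved as follows. With a log2 change of at least 1, PTC1 had 5 higher and 2 lower, PTC2 4 higher, and LD 2 and 1. The mean of PTC1 and PTC2 against LD had 3 and 3, and PTC1 against PTC2 had 2 and 4. Here and below, against LD stands for the comparison of that mean with LD. The 2 lower in PTC2 became 1 after chromosome centring, 4 after local centring, 1 without the trend, and 1 to 2 with a library left out. The 9 higher in LD were 5 to 10 with a library left out. The 9 higher for the mean of the premature stop lines against LD became 14 with scaling to the same median and 5 within 1000 bp of the start. For other regions, a log2 change of at least 1 left PTC1 with 0 and 2, PTC2 with 0 and 1, LD with 0 and 0, 2 and 0 against LD, and 1 and 1 in PTC1 against PTC2. Local centring left 3 higher in PTC1 and 3 in PTC2, and scaling to the same median gave 7 higher against LD. For collagen-making genes, a log2 change of at least 1 left PTC1 with 2 and 4, PTC2 with 2 and 1, LD with 0 and 0, 0 and 3 against LD, and 3 and 4 in PTC1 against PTC2. Loess gave 11 higher in PTC1, 14 higher and 1 lower in LD, and 4 higher and 15 lower against LD. Scaling to the same median gave 1 lower in PTC2 and 12 higher and 5 lower against LD. Chromosome centring gave 5 lower in LD, local centring 3 higher and 4 lower in LD, and no trend 1 lower in PTC2 and 1 in LD. With a library left out, 1 to 4 were lower in PTC2 and 3 to 8 in LD.

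Local centring reversed Col12a1 (-0.03 in PTC2, -0.20 in LD, 0.06 for the premature stop lines against LD), Col1a1 (-0.22 in PTC1 and -0.22 in PTC2), the region before Col1a1 (-0.10 in PTC1, -0.16 against LD), Col1a2 (-0.20 against LD), Col5a1 (-0.02 in LD) and the second Col11a1 region (0.27 in PTC1 against PTC2). It also reversed P3h2 (0.05 against LD), Bmp1 (-0.14 against LD), Mia3 (0.26 in PTC1), Tll1 (-0.26 in PTC1), Lox (-0.04 against LD), Ddr2 (0.21 in PTC1, -0.08 in LD, 0.25 against LD, 0.09 in PTC1 against PTC2) and Bgn (0.19 in LD, -0.13 against LD). Chromosome centring reversed Col12a1 (0.16), Col14a1 (-0.35), Col5a1 (0.02) and Col8a1 (0.23), all against LD, and Lox in PTC2 (0.22). Loess reversed Itgb1 in LD (0.15). Local and chromosome centring subtract the shift of nearby regions by construction; other causes were not tested.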

Other observations

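Regions that lie inside a collagen gene body in RefSeq but are listed with no gene belong to no comparison above. There were 202 of them in 37 genes. In PTC1, 90 were higher and 49 lower (68.8% called, against 62.0% of 56942 regions listed with no gene), and 56 higher and 15 lower had a log2 change of 1 or more (35.1% against 28.2%). Without the 15 regions of Col22a1, described next, the latter share was 29.9% of 187. In PTC2, 72 were higher and 58 lower (64.4% against 59.4%), and in LD 38 and 45 (41.1% against 47.9%).

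Col22a1, a collagen of tissue junctions such as the muscle-tendon border, had no region listed at its start but 15 regions in its body (chr15:71795795-72150979). All 15 were called higher in PTC1 with a log2 change of 1 or more, and 8 of them by 4 or more. After local centring 8 of the 15 were called higher and 2 lower in PTC1, and 4 were lower and 2 higher in LD. For example, the region starting at 71917560 went from 1.03 to -1.75 in PTC1, where its neighbours had a median of 2.78. As these regions are listed with no gene, the neighbours included other regions of Col22a1. The subtracted shift therefore holds part of the change in the gene itself, and a lower call after centring is no fall against WT. The region at chr15:71862960-71863961 read 20, 8 and 8 in WT and 1215, 1225 and 1183 in PTC1. In PTC2, 3 of the 15 were called, and in LD 7 were lower, for example chr15:72116494-72117258, which read 178, 153 and 159 in WT, 434, 496 and 420 in PTC1 and 10, 29 and 20 in LD. The rise was not limited to the gene: 16 regions within 500000 bp outside it had a median log2 change of 3.85 in PTC1, beside -0.25 for PTC2 and -0.48 for LD. Col22a1 was chosen after its values were seen. Why this stretch differs in PTC1 was not tested.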
